A study of Homo sapiens with 2 samples.

Results

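WNT target genes were examined in HCT116 cells treated with decitabine (DAC) or mock-treated. The members were chosen by name as 10 genes known to be induced by WNT signaling, *AXIN2*, *LGR5*, *NKD1*, *ASCL2*, *RNF43*, *ZNRF3*, *SP5*, *TCF7*, *LEF1*, and *MYC*, and all 10 were among the 33538 genes listed in both tables. HCT116 is a line derived from a human colon carcinoma, and DAC is a cytidine analog that traps DNA methyltransferases and lowers DNA methylation as cells divide. Cells were collected 7 days after seeding. In the DAC-treated culture, DAC doses of 0.5 μM were added at days 1 and 3, and drug-free medium was used from day 5. The mock-treated culture was kept on the same schedule without DAC. From each culture, 1 droplet-based single-cell library was made, so there was 1 library per condition. The mock-treated library held 1783 cells and 49911689 unique molecular identifiers (UMIs, each standing for 1 captured transcript molecule), and the DAC-treated library held 1751 cells and 59046165 UMIs.

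In WNT signaling, a ligand bound to Frizzled and LRP receptors stops the destruction complex of APC, AXIN, and GSK3 from marking β-catenin for degradation. Stabilized β-catenin, encoded by *CTNNB1*, enters the nucleus and activates transcription together with TCF/LEF factors, and several of the induced genes are inhibitors that dampen the pathway. In the intestine this program maintains the stem cells of the crypt, and colon cancers commonly carry mutations that keep it active. HCT116 is known to carry an activating mutation of *CTNNB1* that spares β-catenin from degradation. UMI counts do not show a genotype, so that mutation was not checked here. *CTNNB1* transcripts were present in both libraries, with 2685 UMIs in mock-treated and 4452 UMIs in DAC-treated cells.

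Levels are given as UMIs of a gene per 1000000 UMIs of its library (CPM), with exact Poisson 95% confidence intervals for UMI sums, exact conditional binomial intervals for ratios, and exact Clopper-Pearson intervals for shares of cells. All of these cover counting error only, and with no replicate library the differences had no replicate check and no test was made. The median gene was itself higher in DAC-treated cells, by 0.24 on the log2 scale, among the 13547 genes with 100 UMIs or more over both libraries. Ratios are therefore also given relative to this median gene. Of the 10 WNT target genes, 7 had 100 UMIs or more over both libraries, and *AXIN2* and *SP5* reached this number only through their UMIs in DAC-treated cells. A CPM 1.5-fold or more higher in DAC-treated cells was found for 5 of the 7 genes (*AXIN2*, *NKD1*, *RNF43*, *SP5*, and *TCF7*), where 31.0% of all genes were as much higher. A CPM 1.5-fold or more lower was found for 1 of the 7 (*MYC*), near the 14.2% of all genes, and *ZNRF3* lay between. With a minimum of 100 UMIs in each library, chosen after the data were seen, 3 of 5 genes were higher, where 25.3% of all genes were, and 1 was lower. With median-of-ratios scaling, which centers the median gene, 21.8% of all genes were higher and 21.1% lower, and 3 of the 7 genes were higher (*AXIN2*, *NKD1*, and *SP5*) and 1 was lower (*MYC*). *RNF43* and *TCF7* also fell under 1.5-fold with the mean of per-cell CPM. No direction of the 7 genes changed under any of the 3 alternative scalings tried. The remaining 3 genes, *ASCL2*, *LEF1*, and *LGR5*, had no UMI in mock-treated cells.

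**Figure D1:**
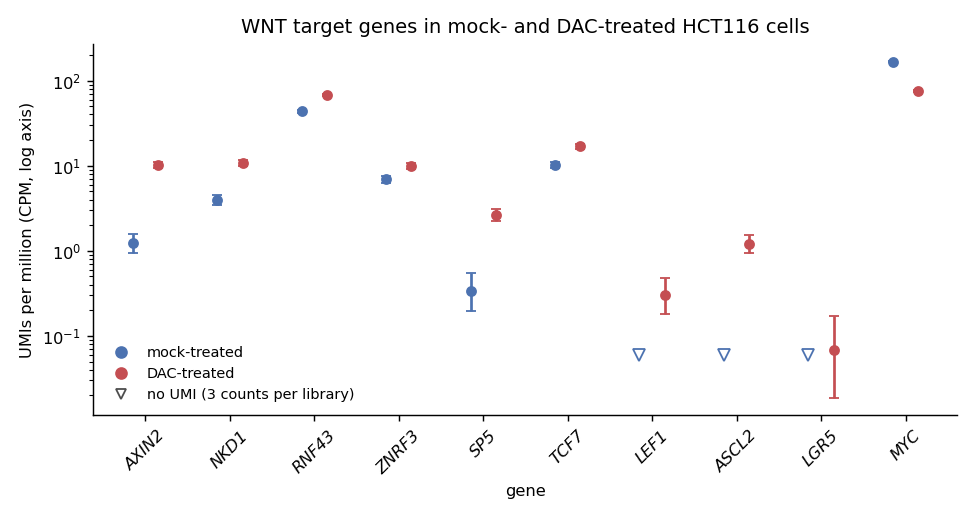
Level of each of the 10 genes in mock- and DAC-treated cells, as CPM on a log axis, with exact Poisson 95% confidence intervals as bars. Open triangles mark 3 counts per library for the 3 genes without a UMI in mock-treated cells; *AXIN2* went from 1.24 to 10.2 CPM and *MYC* from 167 to 75.3 CPM.

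Among the inhibitors that act inside the cell, both *AXIN2* and *NKD1* were higher in DAC-treated cells. *AXIN2* encodes a scaffold of the destruction complex and is a widely used readout of β-catenin activity. It lies on chromosome 17 of hg38 from 65528563 to 65561648 on the minus strand. Mock-treated cells held 62 *AXIN2* UMIs (95% confidence interval 47.5 to 79.5), and DAC-treated cells held 601 (554 to 651). These sums were 1.24 and 10.2 CPM, a ratio of 8.19 (6.30 to 10.8). Relative to the median gene the ratio was 6.96, and 95.3% of all genes tested had a lower ratio. Of the mock-treated cells, 56 had at least 1 *AXIN2* UMI (3.14%, 2.38 to 4.06%), against 393 of the DAC-treated cells (22.4%, 20.5 to 24.5%). *AXIN2* was thus detected in few mock-treated cells and in a larger, still minor, share of DAC-treated cells. Only 1 mock-treated cell had 3 *AXIN2* UMIs or more, against 45 DAC-treated cells.

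*NKD1* encodes a protein that binds Dishevelled and limits the signal downstream of the receptors. It lies on chromosome 16 from 50548396 to 50649249 on the plus strand. *NKD1* had 198 UMIs in mock-treated cells (171 to 228) and 631 UMIs in DAC-treated cells (583 to 682), or 3.97 and 10.7 CPM. The ratio was 2.69 (2.29 to 3.18), and 2.29 relative to the median gene. *NKD1* UMIs were found in 10.5% of mock-treated cells (9.16 to 12.1%) and 21.4% of DAC-treated cells (19.5 to 23.4%). No mock-treated cell had more than 3 UMIs of *NKD1*, whereas a single DAC-treated cell had 20. Of the *NKD1* UMIs in DAC-treated cells, 14.3% came from the 10 cells with the most. In DAC-treated cells *AXIN2* and *NKD1* stood at similar shares of cells, although the mock-treated share of *NKD1* was the larger.

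At the cell surface, *RNF43* and *ZNRF3* encode related transmembrane ubiquitin ligases that remove Frizzled receptors, and R-spondins relieve this inhibition through LGR receptors. *RNF43* lies on chromosome 17 from 58353676 to 58417595 on the minus strand, and *ZNRF3* on chromosome 22 from 28883572 to 29057488 on the plus strand. *RNF43* had 2173 UMIs in mock-treated cells (2083 to 2266) and 4006 UMIs in DAC-treated cells (3883 to 4132), or 43.5 and 67.8 CPM. The ratio was 1.56 (1.48 to 1.64), but 1.32 relative to the median gene, and 71.6% of all genes tested had a lower ratio. *RNF43* was detected in 48.7% of mock-treated cells (46.3 to 51.0%) and 57.3% of DAC-treated cells (54.9 to 59.6%). The gain was larger for cells with several molecules, since 15.8% of mock-treated cells and 32.7% of DAC-treated cells had 3 *RNF43* UMIs or more. *ZNRF3* had 344 UMIs in mock-treated cells (309 to 382) and 585 UMIs in DAC-treated cells (539 to 634), or 6.89 and 9.91 CPM. Its ratio was 1.44 (1.26 to 1.65) and 1.22 relative to the median gene, so *ZNRF3* did not pass 1.5-fold over all cells at full depth. *ZNRF3* was detected in 17.2% of mock-treated cells (15.5 to 19.1%) and 24.6% of DAC-treated cells (22.6 to 26.7%). Both ligase genes were thus above the median gene by modest factors, in contrast with *AXIN2*.

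The transcription factor genes of the group were *SP5*, *TCF7*, and *LEF1*. *SP5* encodes a zinc finger repressor induced directly by β-catenin, and *TCF7* and *LEF1* encode DNA-binding partners of β-catenin. *SP5* lies on chromosome 2 from 170715337 to 170718078 on the plus strand. It had 17 UMIs in mock-treated cells (9.90 to 27.2) and 156 UMIs in DAC-treated cells (132 to 182), or 0.341 and 2.64 CPM. The ratio was 7.76 (4.69 to 13.7), close to that of *AXIN2*, with a wider interval. The UMIs of *SP5* were in 14 mock-treated cells (0.785%), of which 1 cell had 4 UMIs, and in 116 DAC-treated cells (6.62%). *TCF7* lies on chromosome 5 from 134114681 to 134151865 on the plus strand, where *SKP1* overlaps it on the minus strand. Whether the counting used strand is not given in the sources used here, so a part of *SKP1* reads in the *TCF7* counts was not tested. *TCF7* had 513 UMIs in mock-treated cells (470 to 559) and 998 UMIs in DAC-treated cells (937 to 1062), or 10.3 and 16.9 CPM. Its ratio was 1.64 (1.48 to 1.83), and 1.40 relative to the median gene. *TCF7* was detected in 22.5% of mock-treated cells (20.6 to 24.6%) and 35.0% of DAC-treated cells (32.8 to 37.3%). *LEF1*, on chromosome 4 from 108047545 to 108168956 on the minus strand, had a UMI in 0 of the 1783 mock-treated cells, and for cells of that culture at this depth the interval of the share with a UMI reached 0.207%. It had 18 UMIs in DAC-treated cells (10.7 to 28.4) in 16 cells (0.914%). Taking 3 counts per library for the absence in mock-treated cells, the level of *LEF1* after DAC was 5.07-fold higher. The exact interval of the ratio, which also counts the error of the 18 UMIs, had a lower limit of 3.72.

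Promoter windows of these 3 factor genes are shown because TCF/LEF proteins bind DNA letters that may recur in genes of their own pathway. RefSeq promoter windows on GRCh38.p14, 250 bases before to 50 bases after a start, were matched for 4 of the 10 genes (*SP5*, *TCF7*, *LEF1*, and *RNF43*), with 6 windows. Against the gene bounds given here, the start of the *SP5* window is the first base of the gene, and the others lie inside the genes, by 2655 bases for *LEF1*, 932 and 8937 for *TCF7*, and 61 and 14874 for *RNF43*. *AXIN2*, *LGR5*, *NKD1*, *ASCL2*, *ZNRF3*, and *MYC* had no window. The core TCF/LEF motifs CTTTGAT and CTTTGTT were searched on both strands (ATCAAAG and AACAAAG in reverse), and they share the letters CTTTG. Of 35116 promoters of the same length, 2.62% held CTTTGAT, 5.20% held CTTTGTT, and 7.61% held either. Of the 6 windows, that of *SP5* (chr2:170715087-170715386, plus strand) held CTTTGAT at position -109 from the start. The window of *TCF7* farther inside the gene (chr5:134123368-134123667, plus strand) held CTTTGTT in reverse at position -50. Neither motif was found in the *LEF1* window (chr4:108166252-108166551, minus strand), in the other *TCF7* window, or in either *RNF43* window. The windows are printed with the matched letters in capitals, and a match describes letters only.
*SP5*: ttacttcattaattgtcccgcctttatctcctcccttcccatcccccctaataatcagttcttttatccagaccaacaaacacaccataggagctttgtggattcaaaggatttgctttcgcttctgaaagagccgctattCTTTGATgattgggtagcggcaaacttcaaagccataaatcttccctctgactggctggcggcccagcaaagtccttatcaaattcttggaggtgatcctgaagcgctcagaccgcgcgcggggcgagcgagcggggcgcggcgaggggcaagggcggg
*TCF7*: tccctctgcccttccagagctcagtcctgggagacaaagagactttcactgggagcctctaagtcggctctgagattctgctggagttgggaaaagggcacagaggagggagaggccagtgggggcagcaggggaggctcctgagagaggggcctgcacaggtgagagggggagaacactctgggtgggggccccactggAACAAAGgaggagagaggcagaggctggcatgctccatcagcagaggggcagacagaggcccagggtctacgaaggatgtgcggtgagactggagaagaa
*LEF1*: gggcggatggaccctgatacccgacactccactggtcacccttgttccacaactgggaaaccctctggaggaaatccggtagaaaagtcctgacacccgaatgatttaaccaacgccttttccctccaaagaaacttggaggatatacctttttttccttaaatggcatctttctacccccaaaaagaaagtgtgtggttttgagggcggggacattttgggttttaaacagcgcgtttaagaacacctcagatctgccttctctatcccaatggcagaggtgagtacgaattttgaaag
The *SP5* window held 17 CpG sites and the *LEF1* window held 9, where the median promoter held 14 (quartiles 4 and 28). The windows of *TCF7* held 25 and 3 CpG sites, the latter in the printed one, and those of *RNF43* held 0 and 5. The 2 genes with a matched motif, among the 4 with a window, had ratios of 7.76 for *SP5* and 1.64 for *TCF7*. A relation between the letters and the levels was not tested.

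*ASCL2* and *LGR5* are known from intestinal stem cells. *ASCL2* encodes a transcription factor that sets the stem cell program of the crypt, and *LGR5* encodes an R-spondin receptor that marks those cells. Neither had a UMI in mock-treated cells. *ASCL2*, on chromosome 11 from 2268498 to 2270588 on the minus strand, had 71 UMIs in DAC-treated cells (55.5 to 89.6), or 1.20 CPM. It was 20-fold higher than the level of 3 counts in the mock-treated library, and the lower limit of the exact interval was 15.9. The UMIs of *ASCL2* were spread over 62 DAC-treated cells (3.54%, 2.73 to 4.52%), with 1 UMI in 54 of them, 2 UMIs in 7, and 3 UMIs in 1. *LGR5*, on chromosome 12 from 71439798 to 71586310 on the plus strand, had 4 UMIs in DAC-treated cells (1.09 to 10.2), each in a separate cell. The lower limit of the exact interval of its ratio was 0.558, so a difference of *LGR5* was not detectable at this depth.

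*MYC*, which encodes a transcription factor for growth and ribosome production and is induced by β-catenin in colon cancer cells, went in the opposite direction. It lies on chromosome 8 from 127735434 to 127742951 on the plus strand. *MYC* had 8340 UMIs in mock-treated cells (8162 to 8521) and 4447 UMIs in DAC-treated cells (4317 to 4580), or 167 and 75.3 CPM. The ratio was 0.451 (0.435 to 0.467), which is 2.22-fold lower in DAC-treated cells and 2.61-fold lower relative to the median gene. Only 5.08% of all genes tested had a lower ratio. *MYC* was detected in 70.6% of mock-treated cells (68.4 to 72.7%) and 54.0% of DAC-treated cells (51.7 to 56.4%). At least 3 *MYC* UMIs were present in 48.6% of mock-treated cells (46.2 to 50.9%) and 30.0% of DAC-treated cells (27.8 to 32.2%). The highest cell had 58 *MYC* UMIs in the mock-treated and 34 in the DAC-treated library.

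Since a deeper cell is more likely to show a UMI of any gene, each cell was also thinned to 10000 UMIs. Thinning kept 1388 mock-treated and 1293 DAC-treated cells and left out 395 and 458 shallower cells. Before thinning, the kept cells had medians of 31502 and 43906 UMIs. At this equal depth, *AXIN2* was detected in 1.22% of mock-treated cells (0.715 to 1.95%) and 7.81% of DAC-treated cells (6.41 to 9.41%). *NKD1* was detected in 3.67% (2.75 to 4.80%) and 8.51% (7.04 to 10.2%), and *SP5* in 0.360% (0.117 to 0.839%) and 2.55% (1.76 to 3.57%). For *RNF43* the shares were 30.5% (28.1 to 33.0%) and 42.7% (40.0 to 45.4%). *ZNRF3* was detected in 5.98% (4.79 to 7.36%) and 9.20% (7.68 to 10.9%), and *TCF7* in 9.08% (7.62 to 10.7%) and 15.8% (13.8 to 17.9%). *MYC* was detected in 65.9% (63.4 to 68.4%) and 39.7% (37.0 to 42.4%), so that it fell by 26.2 percentage points, which exceeded the difference without thinning. The intervals of the mock- and DAC-treated cells did not overlap for any of these 7 genes. How many of all genes had such intervals was not counted, so this does not set these genes apart. *ASCL2* was detected in 18 DAC-treated cells at this depth, *LEF1* in 4, and *LGR5* in 1.

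**Figure D2:**
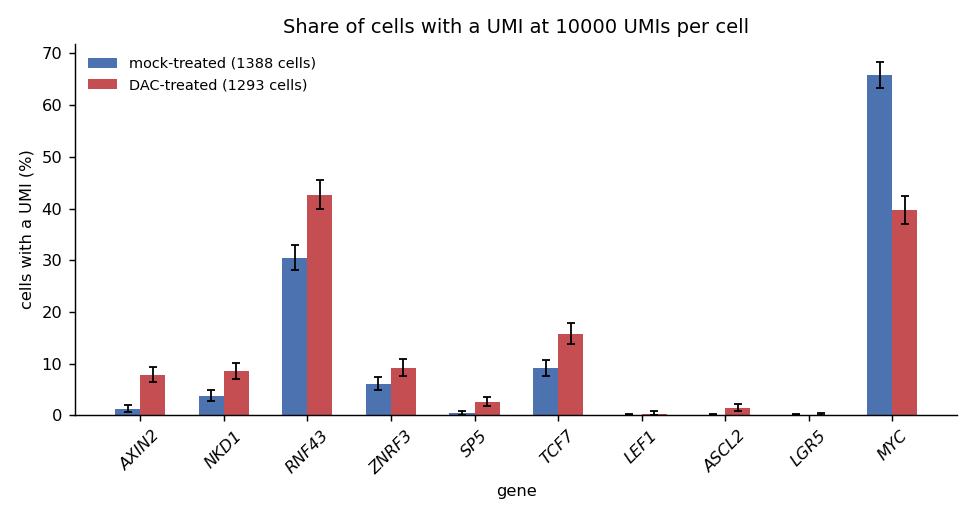
Share of cells with a UMI of each of the 10 genes after thinning every cell to 10000 UMIs, in percent, with exact Clopper-Pearson 95% confidence intervals as bars. The share was higher in DAC-treated cells for *RNF43*, from 30.5% to 42.7%, and lower for *MYC*, from 65.9% to 39.7%.

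The distribution over cells was compared with an even spread. If every cell had taken the same fraction of its UMIs from *AXIN2*, 1723 mock-treated cells and 1282 DAC-treated cells would have had none, and 1727 and 1358 had none. With 62 UMIs in mock-treated cells, the empty cells could not differ much from the even number whatever the spread of *AXIN2*, so only the DAC-treated cells bear on it, where the factor was 1.06. In DAC-treated cells the factor was 1.09 for *NKD1* and 1.05 for *TCF7*. The empty cells of *RNF43* were 1.30 times the even number in mock-treated cells and 1.44 times in DAC-treated cells. Those of *MYC* were 2.05 times and 1.64 times. Since this factor can rise further for genes with more UMIs, it does not rank the genes. At equal depth, the squared coefficient of variation beyond Poisson sampling of *MYC* was 0.722 in the mock-treated and 1.59 in the DAC-treated library. That of *RNF43* was 1.20 and 0.847, so the spread between cells relative to the mean was larger after DAC for *MYC* and smaller for *RNF43*. In DAC-treated cells it was 1.88 for *AXIN2*, 2.85 for *NKD1*, 0.293 for *TCF7*, and 0.283 for *ZNRF3*. Without the 1 cell with the most UMIs of the gene, left out after the data were seen, the value of *NKD1* fell to 1.43, that of *TCF7* to 0.174, and that of *ZNRF3* to 0.158. All of these values cover cells of every mitochondrial share. In mock-treated cells *RNF43* was at 37.1 CPM with 20% or less mitochondrial UMIs and 66.1 CPM above, and in DAC-treated cells at 67.1 and 69.0 CPM. The part of cell quality in the spread was not tested. No other cell type was present to measure UMIs from free RNA, so their part in the low shares was not tested.

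**Figure D3:**
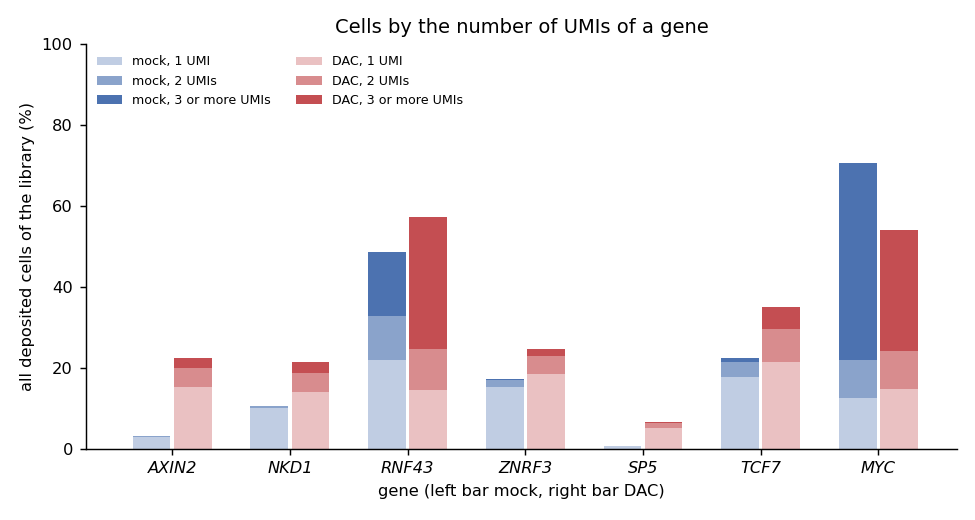
Cells with 1, 2, and 3 or more UMIs of each of 7 genes, in percent of all deposited cells of a library, with mock-treated cells on the left and DAC-treated cells on the right of each pair and darker shades for more UMIs. Cells with 3 UMIs or more went from 15.8% to 32.7% for *RNF43* and from 48.6% to 30.0% for *MYC*.

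The genes were then counted together in each cell at equal depth, leaving out *MYC*, *ASCL2*, *LEF1*, and *LGR5*. No UMI of the other 6 genes was present in 787 mock-treated cells (56.7%) and 495 DAC-treated cells (38.3%). At least 3 of the 6 genes were detected in 11 cells (0.793%) of the mock-treated and 60 cells (4.64%) of the DAC-treated library. The highest number in a cell was 3 in mock-treated and 5 in DAC-treated cells. Each of the 6 genes alone had a higher share in DAC-treated cells at this depth, so more cells with several of them can follow from those shares. *AXIN2* and *SP5* also met the UMI minimum only through their UMIs in DAC-treated cells. The number of cells under independent detection was not computed, so whether the 6 genes gathered in the same cells was not tested by these counts. Among DAC-treated cells, *NKD1* was detected in 17 of the 101 cells with *AXIN2* (16.8%, 10.1 to 25.6%) and in 93 of the 1192 cells without *AXIN2* (7.80%, 6.34 to 9.47%). *ZNRF3* was detected in 17.3% of the 110 DAC-treated cells with *NKD1* (10.7 to 25.7%) and in 8.45% of those without (6.93 to 10.2%). These were the 2 of 9 pairs, chosen after the data were seen, whose intervals did not overlap in DAC-treated cells. None of the 9 pairs was apart in mock-treated cells, where 17 cells had *AXIN2*. By mean UMIs in cells with over cells without a UMI of another gene, 1 of 30 ratios in mock-treated cells had an interval that left out 1, that of *ZNRF3* by *RNF43* (1.66, 1.04 to 2.63). In DAC-treated cells 4 of 30 were above 1 and 2 below. Among them were *RNF43* by *NKD1* (1.40, 1.13 to 1.73), *MYC* by *TCF7* (0.742, 0.603 to 0.905), and *AXIN2* by *MYC* (0.657, 0.429 to 0.988), all named after their values were seen. With the split turned around, the intervals held 1 for *NKD1* by *RNF43* (1.36, 0.948 to 1.96), *TCF7* by *MYC* (0.791, 0.593 to 1.05), and *MYC* by *AXIN2* (0.959, 0.739 to 1.23). The pair of *AXIN2* and *NKD1* was above 1 either way, as *NKD1* by *AXIN2* (2.75, 1.69 to 4.32) and *AXIN2* by *NKD1* (2.52, 1.51 to 4.04). Both of these ratios are among the 4 above 1. Among DAC-treated cells with 20% or less mitochondrial UMIs, *NKD1* was found in 14.3% of 49 cells with *AXIN2* (5.94 to 27.2%) and 7.40% of the others (5.50 to 9.69%), and none of the 9 pairs was apart. *MYC* and *AXIN2* were found together in 32 DAC-treated cells, or 31.7% of those with *AXIN2* (22.8 to 41.7%), against 40.4% of those without (37.6 to 43.2%). *RNF43* and *MYC*, which alone among the 10 genes averaged at least 0.3 UMI per cell in each library at equal depth, had a Pearson r over cells of -0.018 in mock-treated and 0.021 in DAC-treated cells. Of 3320 genes compared, those most like *MYC* over cells were *NME1*, *CD3EAP*, and *NOP56*, with r of 0.176, 0.177, and 0.153 in mock-treated and 0.154, 0.149, and 0.146 in DAC-treated cells. Those most like *RNF43* were *FAT1*, *DST*, and *BMP4*, with r of 0.235, 0.149, and 0.175 in mock-treated and 0.160, 0.146, and 0.127 in DAC-treated cells. Correlations this weak in sparse counts describe the cells of these libraries only.

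The mitochondrial share, a sign of cell quality, and the depth of the cells moved with some ratios. More than 20% of the UMIs were mitochondrial in 607 mock-treated and 775 DAC-treated cells. In these cells *RNF43* was at 66.1 CPM in mock-treated and 69.0 CPM in DAC-treated cells, a ratio of 1.04 (0.957 to 1.14). This was below the median gene of the same cells, whose ratio was 1.24. In cells with 20% or less mitochondrial UMIs, *RNF43* was at 37.1 and 67.1 CPM, a ratio of 1.81 (1.69 to 1.93) where the median gene was at 1.17. The higher *RNF43* level in DAC-treated cells was therefore found at a low mitochondrial share and was not detectable above 20%. The classes were not alike in the 2 libraries, since the median mitochondrial share above 20% was 53.3% in mock-treated and 34.8% in DAC-treated cells. *MYC* was lower in both classes, by 2.50-fold in cells with 20% or less (ratio 0.400, 0.382 to 0.419) and by 1.60-fold in cells with more (ratio 0.624, 0.583 to 0.668). *AXIN2* was higher in both, with ratios of 8.84 (6.45 to 12.4) and 6.42 (3.98 to 11.0), as was *NKD1*, with 2.38 (1.96 to 2.91) and 3.10 (2.26 to 4.35). The ratio of *SP5* was 12.3 (6.45 to 26.4) at 20% or less and 2.97 (1.33 to 7.81) above. For *ZNRF3*, the ratio was 1.54 (1.30 to 1.81) at 20% or less, and that of 1.19 (0.929 to 1.53) above 20% did not exclude equal levels. *TCF7* had ratios of 1.70 (1.5 to 1.94) and 1.49 (1.21 to 1.83). Cells were also divided into 3 depth classes at 18979 and 39364 UMIs. In the shallowest class, which held 573 mock-treated and 605 DAC-treated cells with median mitochondrial shares of 57.7% and 22.0%, *AXIN2* was still 5.85-fold higher (2.38 to 17.3) and *MYC* 1.61-fold lower (ratio 0.622, 0.518 to 0.744). There *TCF7* had a ratio of 1.09 (0.702 to 1.70), *NKD1* of 1.67 (0.870 to 3.27), *ZNRF3* of 1.29 (0.771 to 2.17), and *SP5* of 3.14 (0.513 to 32.9), so that differences of these 4 genes were not detectable in shallow cells. *RNF43* was higher in all 3 depth classes, with ratios from 1.51 to 1.73, where the median gene was at 1.13 to 1.19. The part of cell quality in these differences was not tested.

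**Figure D4:**
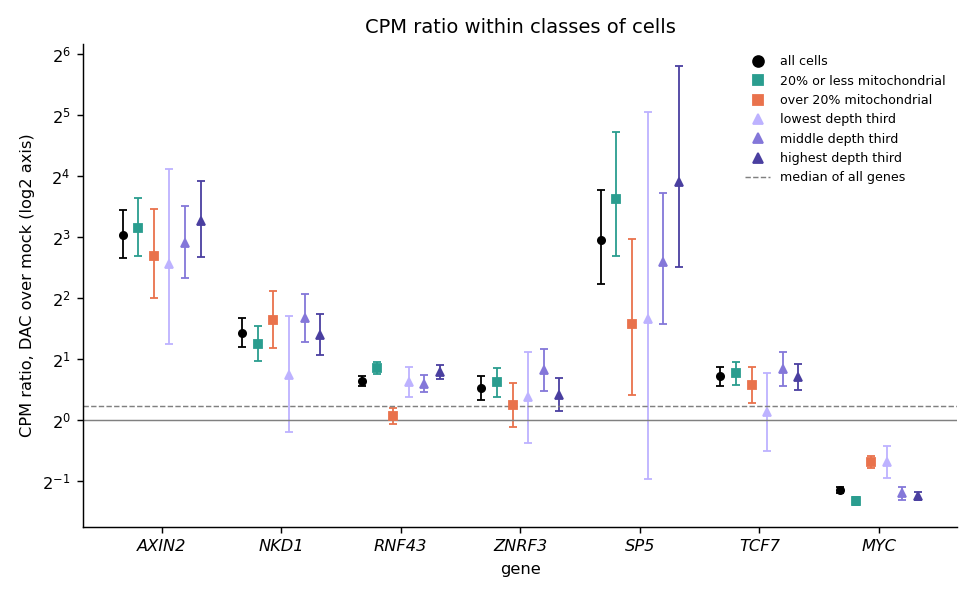
CPM ratio of DAC- over mock-treated cells on a log2 axis for 7 genes, in all cells, in 2 classes of mitochondrial share, and in 3 classes of depth, with exact 95% confidence intervals as bars. The dashed line is the median of all genes over all cells; *AXIN2* lay above it and *MYC* below it in every class, and *RNF43* fell to 1.04 in cells with more than 20% mitochondrial UMIs.

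Other WNT targets outside the 10 genes also ran in both directions. Of 17 with 100 UMIs or more, 7 were 1.5-fold or more higher and 3 lower, where 31.0% and 14.2% of all genes were. Their median log2 ratio was 0.55, against 0.72 for the 7 genes above and 0.24 for all genes. These shares of all genes apply to every list that follows. With 100 UMIs in each library, they were 25.3% higher and 13.3% lower. *CCND1*, for cyclin D1, went from 462 to 1230 CPM (ratio 2.66, 2.62 to 2.70), and *BAMBI* from 3.49 to 17.6 CPM (5.05, 4.30 to 5.97). *CD44*, an adhesion receptor, went from 231 to 104 CPM (0.448, 0.435 to 0.462), much as *MYC* did. *DKK4*, a secreted inhibitor, had 0 and 121 UMIs. Taking 3 counts for the 0, it was 34.1-fold higher, with 27.3 as the lower limit of the exact interval. Its UMIs were in only 0.857% of DAC-treated cells. As with *AXIN2* and *SP5*, some listed genes called higher had under 100 UMIs in mock-treated cells, *EPHB3* and *DKK4* here. Upstream of the targets, ligands and secretion genes had 6 higher and 2 lower of 14 (median 0.54), with *WNT16* from 1982 to 220 UMIs and *WNT5B* from 5 to 373 UMIs. Of these 6, *WNT3*, *WNT5B*, *WNT9A*, and *RSPO4* had under 100 UMIs in mock-treated cells, and with 100 UMIs in each library 2 of 8 were higher and 1 lower. Receptors had 3 higher and 4 lower of 15 (median -0.22), and 1 higher and 2 lower of 10 with 100 UMIs in each library. Of the secreted antagonists, *DKK1* went from 4932 to 11665 UMIs, and *SFRP1*, with 0 and 525 UMIs, reached 100 UMIs only through the DAC-treated cells. Destruction complex and Dishevelled genes had 4 higher (*APC*, *GSK3A*, *DVL1*, and *DVL3*) and 0 lower of 19. Their median was 0.44, against 0.24 for all genes. The share higher was 21.1%, against 31.0% of all genes, and the difference was not tested. With 100 UMIs in each library, 4 of 18 were higher and 0 lower, where 25.3% and 13.3% of all genes were. *CTNNB1* had a ratio of 1.40 (1.34 to 1.47). TCF partners and cofactors had 1 higher and 4 lower of 18 (median 0.23), with *TCF7L2*, the main TCF gene of the intestine, from 154 to 76.9 CPM (0.499, 0.481 to 0.518). *TCF7L2* was thus lower while *TCF7* was higher, and both directions were the same relative to the median gene.

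Around *MYC*, its dimerization network had 2 higher and 2 lower of 11 (median 0.15), with *MYCL* from 364 to 138 UMIs. None of 25 genes known as *MYC* targets was 1.5-fold or more lower, and 6 were higher (24.0%, against 31.0% of all genes), with a median of 0.31, close to that of all genes. With 100 UMIs in each library, 6 of 24 were higher and 0 lower, where 25.3% and 13.3% of all genes were. Among the 25, *NPM1* had a ratio of 1.05 (1.04 to 1.06) and *SRM* of 2.08 (2.03 to 2.13), and *NPM1* lay below the median gene. A ratio with an interval below 1 was found for 5 of the 25, from 0.859 to 0.949 (*CDK4*, *APEX1*, *FBL*, *GNL3*, and *DKC1*, named after their values were seen). This count is against a ratio of 1 and not against the median gene. The share of all genes with such an interval was not counted, and intervals are narrow for genes with many UMIs. Intestinal stem cell genes had 2 higher and 1 lower of 11 (median 0.29), with *CD24* from 384 to 1056 UMIs and *PROM1* from 261 to 103 UMIs. Of the 9 with 100 UMIs in each library, 2 were higher and 1 lower, and their median was -0.05. Intestinal differentiation genes had 5 higher and 1 lower of 9 (median 0.64), with *KRT20* from 27 to 599 UMIs and *HES1* from 2006 to 1393 UMIs. All 5 higher genes (*KRT20*, *TFF3*, *CEACAM1*, *LGALS4*, and *ANPEP*) had under 100 UMIs in mock-treated cells, and of the 4 genes with 100 UMIs in each library 0 were higher and 1 was lower. Markers of epithelial colon cancer cells were present in both libraries for 8 of 8 genes, at a sum of 5380 CPM in mock-treated and 8148 CPM in DAC-treated cells. Of these, 2 were higher and 4 lower (median -0.39), with *KRT18* the most abundant. Markers of endothelial cells stayed low, with sums of 11 and 115 UMIs for 4 genes, led by *VWF*. The 6 fibroblast markers had 543 and 1178 UMIs, of which *COL1A1* had 533 and 1112. The immune genes *PTPRC* and *CD3E* were at 0 in mock-treated cells and had 16 and 24 UMIs after DAC, and *LYZ*, *CD14*, and *MS4A1* had 10, 3, and 1 UMIs in mock-treated cells and 31, 15, and 4 after DAC. At 0 in mock-treated cells were also *COL1A2*, *DCN*, and *LUM* of the fibroblast and *PECAM1* and *CDH5* of the endothelial markers. The fibroblast and endothelial sums, and each immune gene named here, were higher after DAC, as most of the WNT target genes were. The part of these markers in the results was not tested.

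**Figure D5:**
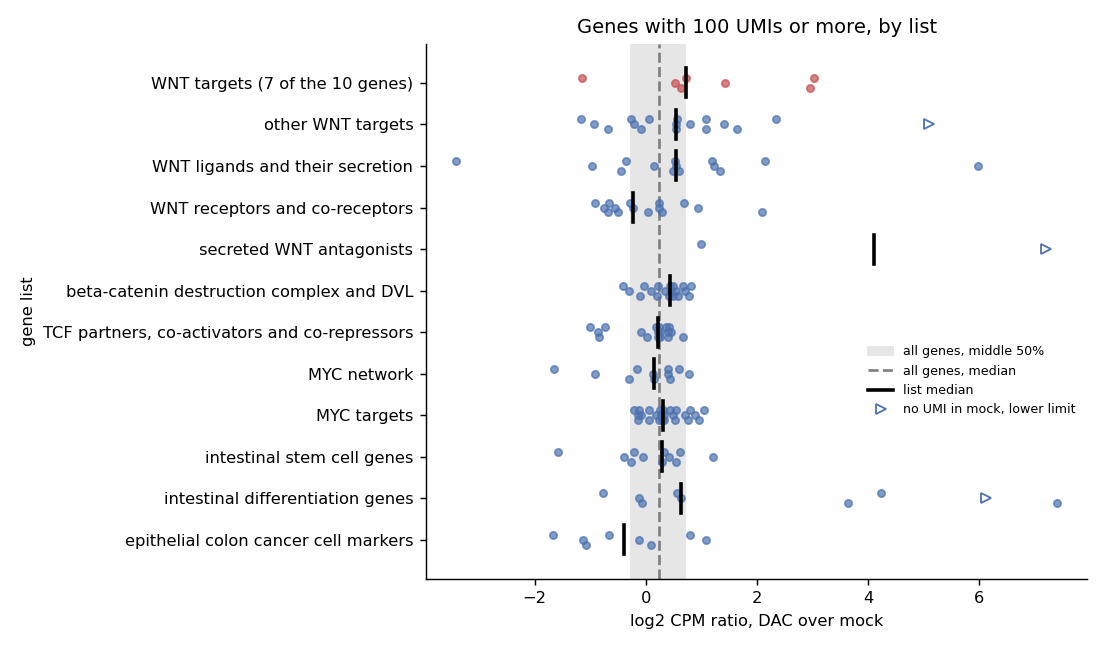
Log2 CPM ratio of DAC- over mock-treated cells for each gene with 100 UMIs or more, by list, with black bars for list medians, the dashed line for the median of all genes (0.24), and the grey band for the middle 50% of all genes. Open triangles, labeled as lower limits, take 3 counts for genes with a count of 0 in mock-treated cells, and the lower limits of the exact intervals are smaller. The 7 WNT target genes spanned from -1.15 for *MYC* to 3.03 for *AXIN2*.

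Differences between the cultures or library preparations other than DAC cannot be told apart from DAC with 1 library per condition. Annotated transcripts on the same strand overlap *AXIN2*, *LGR5*, *NKD1*, *RNF43*, and *ZNRF3*, so that counts can include reads of such transcripts. Genes on the opposite strand overlap each of the 10 genes except *AXIN2* and *ASCL2*, and their reads can be included if the counting did not use strand.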

How the data were processed

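Single-cell libraries of mock- and DAC-treated HCT116 cells were analyzed, 1 per condition. The authors mapped the reads to hg38 with Cell Ranger and deposited unnormalized UMI counts of each gene in each cell. The annotation release and any cell filter are not given in the sources used here. No cell was left out, no doublet caller was run, and 12 barcodes were shared by both libraries. Median UMIs per cell were 27899 (500 to 148446) in mock-treated and 35340 (501 to 110116) in DAC-treated cells. Sums, exact intervals, and hypergeometric thinning were computed with scipy 1.17.1, numpy 2.4.6, and pandas 2.3.3 in Python 3.11.15, tested on simulated data, and plotted with matplotlib 3.10.9. Positions came from GENCODE release 44. The genes and lists were chosen with earlier results of these data known. From each list, genes named were among the 4 with the most UMIs, those at least 2-fold apart with at least 100 UMIs in 1 library, or those making up a small count. For 1 listed gene, its counts and the sum with it are not reported here. Alternatives were other scalings, cell filters, depths, folds, and UMI minimums.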

Additional observations from a re-analysis of the deposited data

How the results depend on the processing

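The log2 ratios of the 7 genes with a UMI in both libraries kept their direction in 56 of 56 values under 8 settings, and 44 stayed within the counting interval. That of *MYC* was -1.15 and moved to -1.37 with median-of-ratios scaling, -1.01 with the mean of per-cell CPM, -1.34 in cells with 10000 UMIs or more and 20% or less mitochondrial UMIs, and -0.89 with at most 5 UMIs counted per cell. With the mean of per-cell CPM, *RNF43* moved from 0.64 to 0.531 and *TCF7* from 0.718 to 0.356, and with at most 5 UMIs per cell *RNF43* was at 0.452, all under 1.5-fold. With each cell thinned to 10000 UMIs, *ZNRF3* moved from 0.524 to 0.716, over 1.5-fold. The number of genes 1.5-fold or more higher was 5, and 3 at a fold of 2, 3 with median-of-ratios scaling, 2 of the 3 genes with 1000 UMIs or more (26.7% of all genes), 7 of the 9 with 10 UMIs or more (38.0% of all genes), and 6 of 7 (30.3% of all genes) in cells with 10000 UMIs or more and 20% or less mitochondrial UMIs, where *ZNRF3* also passed (log2 ratio 0.611). The 7 include *ASCL2* and *LEF1*, which had 0 UMIs in mock-treated cells and reached 10 only through DAC-treated cells. The number was 3 of the 5 genes with 100 UMIs in each library, an alternative chosen after seeing the data. At a fold of 2, 16.3% of all genes were higher and 6.80% lower. The share of cells with *AXIN2* was 19.3 percentage points higher in DAC-treated cells. The difference was 2.51 points with 3 UMIs or more, 3.93, 6.59, and 15.2 points after thinning to 5000, 10000, and 20000 UMIs, and 26.8 points in cells with 10000 UMIs or more and 20% or less mitochondrial UMIs. That of *MYC* was -16.5 points, and -26.2 and -24.1 points after thinning to 10000 and 20000 UMIs. With 3 UMIs or more, the differences of *LGR5* and *LEF1* were 0, as was that of *LGR5* after thinning to 5000 UMIs, since no cell reached that count. The causes of the other changes were not tested. Genes with few UMIs in mock-treated cells were limited by depth.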
